A study of Mus musculus with 42 samples.

Results

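The comparison concerned the cytoplasmic RNA of NIH3T3 cells, an established mouse embryonic fibroblast line that the labels give as strain C57BL/6. Members were the 4 libraries that served as input of a TIA1 ribonucleoprotein immunoprecipitation (RIP) experiment, of 42 libraries in the series: 2 from cells left in normal medium (NT, replicates 1 and 2) and 2 from cells given 250 µM sodium arsenite for 1 h and collected without recovery (AS, replicates 1 and 2). The rule pairs AS and NT by replicate number. RNA 3′ ends were sequenced by 3′READS, in which poly(A)+ fragments are captured and each read marks a poly(A) site (PAS). Reads of all PASs in a gene's last exons and up to 4000 nt past them were summed, so that a gene has 1 value in each library. Both groups came from this 1 cell line. The study calls the replicates of the RIP experiment biological, but the labels do not say whether they came from separate cultures. The tests cover these libraries only.

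Arsenite binds protein thiols and damages folding proteins. Cells respond through heat shock factor 1, which switches on chaperone genes, through NRF2, which switches on antioxidant genes, through the metal sensor MTF1, which switches on metallothioneins, and through kinases that induce immediate early genes within minutes. Arsenite also leads to phosphorylation of eIF2α, which lowers translation of most mRNAs and gathers them in stress granules. According to the study's methods, the input was lysate supernatant left after nuclei were spun down and after a further, faster spin. RNA lost to the pellets is not in these libraries. The question here was which transcripts differed in abundance in this cleared cytoplasmic lysate at the end of the treatment.

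The NT libraries held 3642602 and 2524260 PAS reads and the AS libraries 3376846 and 1956850. The PASs listed had at least 5 reads in a library, and an unlisted PAS was taken as 0. Reads on the mitochondrial chromosome were 5.45 and 4.25% in NT and 3.21 and 3.50% in AS and were left out. Of the 14 fibroblast markers 14 had reads, among them S100a4 at 3707 to 5231 normalised reads per 1000000 reads (RPM) and Vim at 712 to 1851 RPM. None of 9 epithelial markers, 1 of 11 muscle markers and 3 of 10 immune and endothelial markers had any. Of 7 RNAs known to stay in the nucleus 4 had reads, and Malat1 was at 0 to 2.79 RPM in the 4 libraries. Together these RNAs stood at 17.6 and 60.0 RPM in NT and 47.3 and 70.2 RPM in AS. Libraries with the same replicate number were closer to each other than libraries of the same treatment. Pearson's r of log2 values across 8565 genes was 0.952 for AS 1 with NT 1 and 0.924 for AS 2 with NT 2, against 0.875 between the AS libraries and 0.893 between the NT libraries. Acta2, smooth muscle actin, shows the size of this split: it was at 2540 and 316 RPM in NT and 2891 and 481 RPM in AS.

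Because of this split the comparison is given in 2 forms. In edgeR's quasi-likelihood test of AS against NT with treatment as the only term, no gene of 8565 passed an adjusted p of 0.05 in either direction (163 had an unadjusted p below 0.05, 117 higher and 46 lower in AS), and the smallest adjusted p was 0.417. DESeq2 with the same terms called 23 genes higher and 1 lower. With the replicate number as a block, edgeR called 62 genes higher in AS (0.724%) and 5 lower (0.0584%). In what follows "called" means past an adjusted p of 0.05 in the blocked fit, and log2 changes with their SE come from it. The block takes out the difference between replicate numbers. With so few libraries its SEs and p-values draw largely on the variance of other genes. They do not measure how far a gene's own pair changes lie apart. The 62 depended on the settings: the blocked fit called 27 genes higher when scaled by library totals and 132 when genes needed more than 5 reads in every library. Of the 67 calls, 18 were lost with DESeq2 in place of edgeR, 17 with the last exon only and 39 with library totals. Among the 62, 2 genes (Egr1 and Rel) had no reads in either NT library and so passed the filter on low counts through AS alone. Of the 62, 60 had AS and NT values that did not overlap, as had all 5 lower genes, beside 13.1% and 12.3% of all genes tested. The calls rest on these same values, so this is a description and no further support. Without a test, 101 of 7998 genes of at least 5 RPM were at least 2-fold higher in both pairs (1.26%) and 39 at least 2-fold lower (0.488%). Each named gene is also given by its values in the 4 libraries, NT 1 and NT 2 first, then AS 1 and AS 2. Values are shares of the library, so a fall in one transcript cannot be told apart from a rise in the others, and fewer cells cannot be told apart from less RNA per cell. In the plot of pair 1 against pair 2 the called genes lie along the diagonal, whereas most genes form a round cloud. The blocked fit favours genes whose changes are alike in both pairs, so this follows from the selection.

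**Figure D1:**
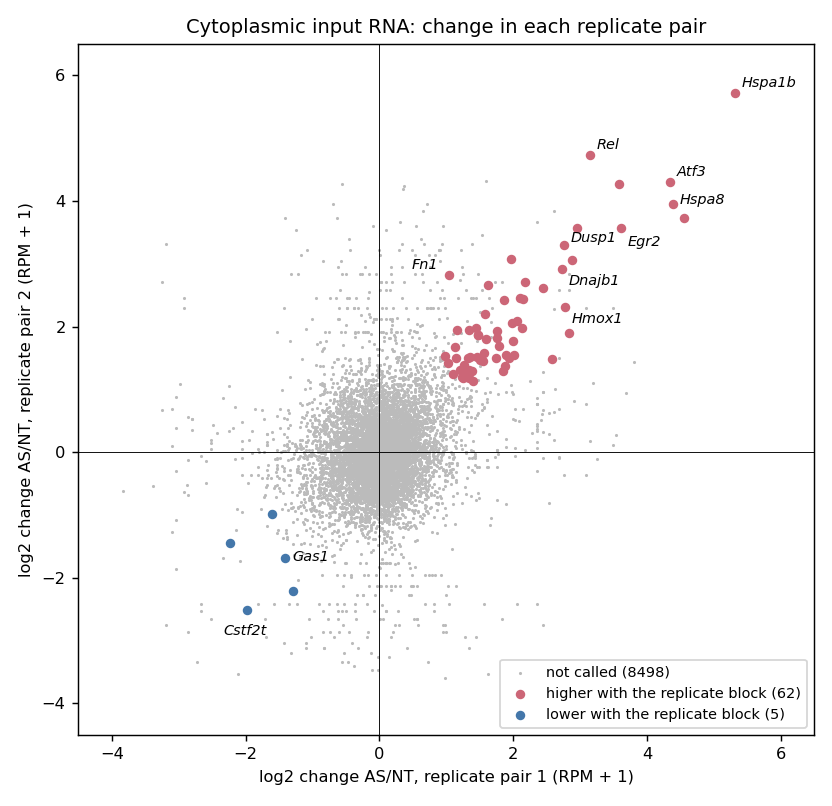
Log2 change AS/NT (1 RPM added to each value) in replicate pair 1 (x axis) and pair 2 (y axis), 1 point per gene of 8565 tested. Red points are the 62 genes called higher and blue points the 5 called lower with the replicate block, and Hspa1b has the highest sum of both changes (5.32 and 5.72).

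Among genes with reads in an NT library, Hspa1b had the largest change, while most other chaperone genes were not called. Hspa1b, which encodes the inducible cytosolic HSP70, was at 7.85 and 13.0 RPM in NT and at 352 and 734 RPM in AS. Both AS libraries lay far above both NT libraries, and the log2 change was 5.65 ± 0.31 (SE; adjusted p = 1.54e-06). The gene spans chr17:35093381-35096183 (NCBIM37), and 91.7% of its reads ended at 1 PAS. The near-identical neighbour Hspa1a had reads in AS 1 alone (4.43 RPM), and how reads were divided between the copies is uncertain. Dnajb1, an HSP40 co-chaperone that stimulates HSP70, was at 43.3 and 20.6 RPM in NT and 292 and 162 RPM in AS (log2 change 2.85 ± 0.27, adjusted p = 0.000121). Its relative Dnajb4 was at 8.48 and 13.4 RPM in NT and 41.9 and 93.0 RPM in AS (2.55 ± 0.30, adjusted p = 0.00086). Hspa8, the constitutive HSP70, was called higher from 5.34 and 0 RPM to 132 and 14.5 RPM, but the AS libraries differed strongly from each other. Its listed reads are few for a constitutive chaperone and lie at the first base of the last exon, so its value is uncertain.

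Of 11 tested members of the HSP70 and HSP110 list 2 were called higher and none lower, and of 17 DNAJ co-chaperones 2 and none. None of 15 members of the HSP90 list and none of 9 small HSP and BAG genes was called. Members that missed the threshold include Hsph1, the HSP110 nucleotide exchange factor, at 389 and 449 RPM in NT and 784 and 672 RPM in AS (log2 change 0.80 ± 0.25, adjusted p = 0.255), and Bag3, a co-chaperone of HSP70, at 51.5 and 78.7 RPM in NT and 126 and 138 RPM in AS (1.05 ± 0.26, adjusted p = 0.12). In both genes the lower AS value lay above the higher NT value. Hspa4, another HSP110 gene, was at 149 and 149 RPM in NT and 197 and 194 RPM in AS (adjusted p = 0.728). Hsp90aa1, the inducible HSP90, was at 30.1 and 13.4 RPM in NT and 47.3 and 29.0 RPM in AS (adjusted p = 0.381), and its groups overlapped.

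**Figure D2:**
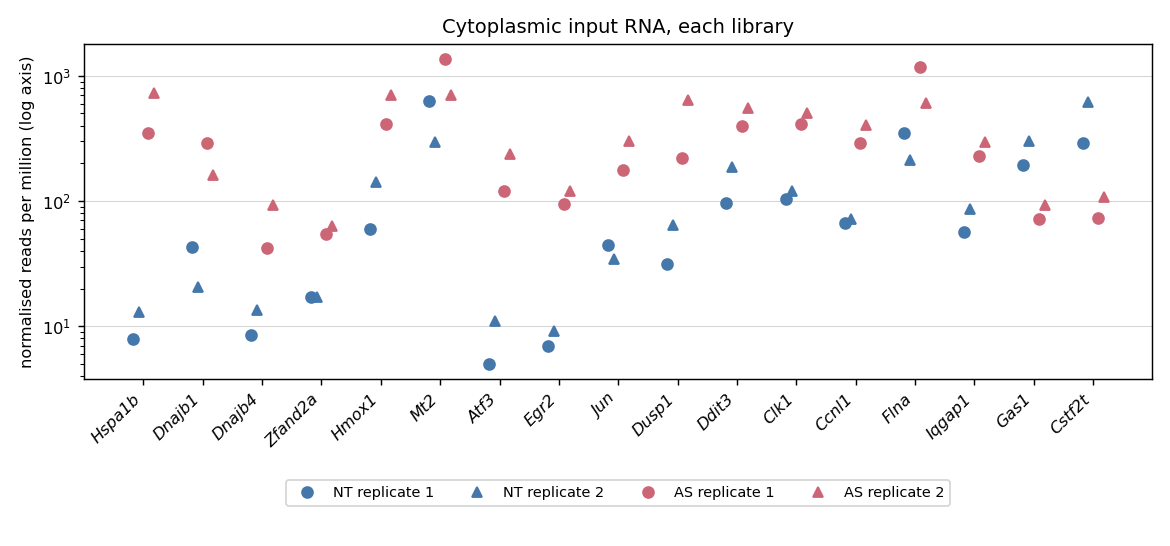
Normalised RPM (log axis) of 17 genes in each of the 4 input libraries. Circles are replicate 1 and triangles replicate 2, blue is NT and red is AS. For Hspa1b the AS values (352 and 734) lie far above NT (7.85 and 13.0), whereas for Cstf2t they lie below (72.5 and 108 against 288 and 623).

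The PASs that carry these changes are shown because every value of a gene is a count of RNA ends there. Each line gives the last 30 nt up to the PAS with the highest count in the 4 libraries, in the sense of the RNA, from NCBIM37, with the AATAAA or ATTAAA signal in capitals.
Hspa1b, chr17:35093376-35093405, minus strand: ttaaatattcaaAATAAAaggttacaagta
Dnajb1, chr8:86135773-86135802, plus strand: gacagcATTAAAgactgatgctaaacctca
Atf3, chr1:192994175-192994204, minus strand: atAATAAAtatcggaacaaaacctggtaaa
Egr2, chr10:67004907-67004936, plus strand: tatggtgtaAATAAAtacttttcaacaata
Hmox1, chr8:77624460-77624489, plus strand: gaaatAATAAAtggcattatctaacagtca
Iqgap1, chr7:87856475-87856504, minus strand: atcttcgtatgaAATAAAaggtcatttgtt
Cstf2t, chr19:31161452-31161481, plus strand: aacatccaatttcggttgggaaaaaaaaaa
The signal starts 17 to 27 nt before the PAS in the 6 windows that hold it. Cstf2t has neither signal in its window, which ends in a run of A. Within 40 nt of the main PAS, AATAAA was present in 83.9% of the 62 genes called higher and in 66.5% of all 8565 genes, and neither signal was found in 12.9 and 17.3%.

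Immediate early genes were the list with the most calls. The EGR, IER and KLF list also holds other immediate early genes. Of its 22 tested members 9 were called higher, and of 10 AP-1 genes and partners 4, with none lower in either list. The 9 were Egr1, Egr2, Ier2, Gadd45a, Gadd45b, Gadd45g, Btg2, Nr4a1 and Zfp36, and no KLF gene was called. The calls of Egr1 and Gadd45b were lost with the last exon only and with library totals. That of Gadd45a was lost with DESeq2 and the block and with library totals. Egr1 had no reads in NT. The median change over the EGR, IER and KLF list was 1.07 in pair 1 and 1.21 in pair 2 on the log2 scale, against 0.02 and -0.03 over all genes tested. Atf3, a CREB-family repressor of the AP-1 group, was at 5.02 and 11.04 RPM in NT and 121 and 237 RPM in AS (log2 change 4.49 ± 0.31, adjusted p = 1.24e-05). Egr2, a zinc finger activator, was at 6.91 and 9.12 RPM in NT and 95.0 and 120 RPM in AS (3.74 ± 0.30, adjusted p = 5.47e-05). In both genes every AS value lay above every NT value. The AS values of Atf3 differed from each other, but its log2 changes in the pairs were close (4.34 and 4.30).

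Jun, a subunit of AP-1, was at 44.6 and 34.6 RPM in NT and 176 and 300 RPM in AS (2.52 ± 0.31, adjusted p = 0.000956). Its partner Fos was at 0 and 3.84 RPM in NT and 22.5 and 63.5 RPM in AS. Egr1 and Rel, an NF-κB subunit, were listed in no NT library and stood at 10.9 and 18.4 RPM and at 7.83 and 25.6 RPM in AS. No fold is given for these genes because PASs with under 5 reads are not listed. The call of Rel was lost with library totals. In total RNA Egr1 was at 397 RPM in NT and 367 RPM in AS in pair 1, at 4.55 and 11 RPM in pair 2, and at 0 in both libraries of pair 4. Csrnp1 rose by 3.28 ± 0.30, Gadd45g by 2.55 ± 0.26 and Nr4a1, an orphan nuclear receptor, by 2.36 ± 0.29 on the log2 scale. Nr4a1 also shows the replicate split, at 26.4 and 137 RPM in NT and 193 and 514 RPM in AS, with the AS 1 library only a little above NT 2. Dusp1, which removes phosphate from p38 and JNK, was at 31.7 and 63.8 RPM in NT and 220 and 637 RPM in AS (3.06 ± 0.27, adjusted p = 9.88e-05). It was the only one of 9 tested dual-specificity phosphatases to be called. Dusp4, for example, was at 8.48 and 2.40 RPM in NT and 15.7 and 11.7 RPM in AS (adjusted p = 0.485). Ptgs2, the inducible cyclooxygenase, was the only called gene of 12 tested in the list of cytokines, growth factors and genes induced with them, at 25.8 and 35.5 RPM in NT and 72.9 and 133 RPM in AS. Its call was lost with the last exon only and with library totals.

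Among antioxidant and metal genes, few were called, though Hmox1 was strongly so. Hmox1, the heme oxygenase that degrades heme, was at 59.7 and 142 RPM in NT and 412 and 709 RPM in AS (log2 change 2.55 ± 0.26, adjusted p = 0.000258). It was the only call among 20 tested NRF2 targets, of which 5 were higher and 5 lower in both pairs. Of all genes tested, 26.9% were higher and 28% lower in both pairs. Another member, Osgin1, was at 2.83 and 0 RPM in NT and 10.6 and 18.9 RPM in AS (adjusted p = 0.235). The metallothioneins bind zinc and other metals. Mt2 was at 634 and 294 RPM in NT and 1356 and 696 RPM in AS (1.17 ± 0.24, adjusted p = 0.0454), and Mt1 was at 692 and 533 RPM in NT and 1351 and 721 RPM in AS (0.70 ± 0.25, adjusted p = 0.389). The zinc exporter Slc30a1 was at 19.2 and 15.8 RPM in NT and 34.7 and 59.0 RPM in AS (adjusted p = 0.102). All 3 genes were higher in AS in both pairs, and only Mt2 passed. The call of Mt2 was lost with the last exon only and with library totals.

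Genes of protein turnover and of the integrated stress response were called in part. Zfand2a, an AN1 zinc finger protein of the proteasome, was at 17.3 and 17.3 RPM in NT and 54.1 and 62.9 RPM in AS (1.75 ± 0.28, adjusted p = 0.00906), but was not called by DESeq2 with the block (adjusted p = 0.122) or with library totals. Of 8 tested genes of the ubiquitin and AN1 list 2 were called higher, this one included. The polyubiquitin gene Ubb was at 10.1 and 17.3 RPM in NT and 20.4 and 22.8 RPM in AS (adjusted p = 0.629). None of 31 proteasome subunits was called. In the integrated stress response list 3 of 17 tested genes were called: Ppp1r15a, which directs the phosphatase to eIF2α, at 11.9 and 14.9 RPM in NT and 56.2 and 85.2 RPM in AS; Ddit3, the transcription factor CHOP, at 96.7 and 186 RPM in NT and 394 and 549 RPM in AS; and Chac1, which degrades glutathione, at 27.9 and 32.2 RPM in NT and 63.7 and 126 RPM in AS. Of these 3, Chac1 was not called by DESeq2 with the block (adjusted p = 0.0667), with the last exon only or with library totals. None of 18 genes of the ER unfolded protein response was called. Of these, 8 were higher and 7 lower in both pairs, beside 26.9% and 28% of all genes tested.

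Transcripts of splicing kinases and of several noncoding genes were also among the 62. But for Flna, Fn1 and the members of lists named with their counts, the genes in this and the next paragraph belong to no list and were chosen after their values were seen, as were Rel and Csrnp1 above and the genes called lower. Clk1, a kinase that phosphorylates SR splicing factors, was at 104 and 120 RPM in NT and 413 and 501 RPM in AS (log2 change 2.02 ± 0.25, adjusted p = 0.000956). Its paralog Clk4 was at 23.6 and 23.5 RPM in NT and 66.1 and 69.1 RPM in AS (1.52 ± 0.27, adjusted p = 0.0178), and it was not called by DESeq2 with the block (adjusted p = 0.2) or with library totals. Ccnl1, a cyclin of splicing-linked kinases, was at 67.2 and 72.5 RPM in NT and 292 and 403 RPM in AS (2.29 ± 0.25, adjusted p = 0.00055). For these 3 genes the replicates of a treatment were close and the groups far apart. The U1 splicing factor Prpf39 rose by 1.75 ± 0.31, and the small nucleolar RNA host Snhg1 by 1.26 ± 0.24 and the long noncoding RNA Pvt1 by 1.22 ± 0.24 on the log2 scale. The calls of Prpf39, Snhg1 and Pvt1 were lost with library totals, and that of Pvt1 also with the last exon only. None of 28 SR proteins and hnRNPs was called. Of these, 12 were higher and 7 lower in both pairs, beside 26.9% and 28% of all genes tested. Neat1, the scaffold of nuclear paraspeckles, was at 7.54 and 19.7 RPM in NT and 44.95 and 30.6 RPM in AS (adjusted p = 0.151), and its direction turned when only clusters listed in all 4 libraries were used (log2 change -0.19).

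Several genes of cytoskeletal and matrix proteins were also called higher. They were picked after their values were seen and form no tested group, and their mRNAs range from 3.04 kb (Dbn1) to 15.5 kb (Plec). Flna and Flnc encode large filamins, which crosslink actin. Flna was at 349 and 211 RPM in NT and 1171 and 601 RPM in AS (log2 change 1.63 ± 0.25, adjusted p = 0.0056). Flnc was at 106 and 119 RPM in NT and 392 and 309 RPM in AS (1.64 ± 0.25, adjusted p = 0.00678). No value of NT reached a value of AS in either gene. Plec, which encodes the cytolinker plectin, rose by 2.19 ± 0.33 on the log2 scale, the actin-binding scaffolds Iqgap1 and Iqgap3 by 1.89 ± 0.25 and 1.79 ± 0.27, drebrin (Dbn1) by 1.52 ± 0.25, Phldb2 by 1.40 ± 0.26 and alpha-actinin 4 (Actn4) by 1.25 ± 0.25. The matrix protein fibronectin (Fn1) was at 795 and 287 RPM in NT and 1626 and 2031 RPM in AS (1.92 ± 0.37, adjusted p = 0.0285). Its pair changes of 1.03 and 2.82 differed widely, and the call was lost with DESeq2 and the block (adjusted p = 0.651), with the last exon only and with library totals. Library totals also ended the calls of Plec, Iqgap3, Dbn1, Phldb2 and Actn4, but not those of Flna, Flnc and Iqgap1. The call of Iqgap3 was also lost with DESeq2 and the block, and those of Phldb2 and Actn4 with the last exon only.

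Of the lists that bear on these genes, 1 of 15 tested actin and SRF targets (Flna) and 1 of 31 extracellular matrix genes (Fn1) were called. Vcl, vinculin, was at 15.1 and 16.3 RPM in NT and 22.8 and 37.3 RPM in AS (adjusted p = 0.411). Actb was at 4666 and 1886 RPM in NT and 5587 and 1927 RPM in AS (adjusted p = 0.932). Of 312 tested genes with an annotated coding length of at least 5 kb, 6 (1.92%) were called higher, against 56 of 8448 coding genes (0.663%), but the median change of the 312 was -0.07 in pair 1 and 0.08 in pair 2. The coding lengths of Plec (14.1 kb), Flnc (8.18 kb), Flna (7.92 kb), Fn1 (7.43 kb) and Iqgap1 (5.04 kb) are among the 6.

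To see whether the cytoplasmic change was matched in the whole cell, it was set beside 6 3′READS libraries of total RNA from NIH3T3 cells (3 AS and 3 NT, replicates 1, 2 and 4, the same dose and time). In total RNA the test without a block called no gene of 9133 (19 with an unadjusted p below 0.05), and with the block it called 24 higher (0.263%) and none lower. Of these 24, 18 were also among the 62 (Atf3, Jun, Hmox1, Dnajb1, Ddit3 and Zfp36 among them), which is 75.0% of one list and 29.0% of the other. Over the 62 genes the median change in total RNA was 0.99 on the log2 scale, and 51 had a mean above 0, as did 4111 of all 8565. In the cytoplasm of proliferating C2C12 myoblasts, with 1 library per condition and so no test, 61 of the 62 were higher in AS, as were 4228 of 8565.

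Hspa1b, Atf3 and Hmox1 were higher in AS in every pair of both RNA pools. Their mean change in total RNA was 3.72 for Hspa1b, 3.30 for Atf3 and 2.48 for Hmox1, beside 5.52, 4.32 and 2.54 for the same mean of pairs in the input, with a wide spread for Hspa1b in total RNA (2.09, 6.74 and 2.32). Among the cytoskeletal genes the total RNA pairs were of mixed sign for most. Plec changed by 0.47, -0.60 and -1.003 in the 3 total RNA pairs and by 2.13 and 1.98 in the 2 input pairs, and Flna by 0.43, -0.27 and -0.32 against 1.74 and 1.50. In total RNA pair 1 Iqgap3 was also higher (0.43), as was Dbn1 (0.23), and Actn4 was in pair 4 (0.24). Iqgap1 changed by -0.09, -0.13 and -0.43 in the 3 total RNA pairs and by 1.99 and 1.77 in the 2 input pairs. For Flnc these were -0.22, 0.04 and -0.17 against 1.87 and 1.38. In the plot of both changes these genes lie near 0 on the x axis by their mean.

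**Figure D3:**
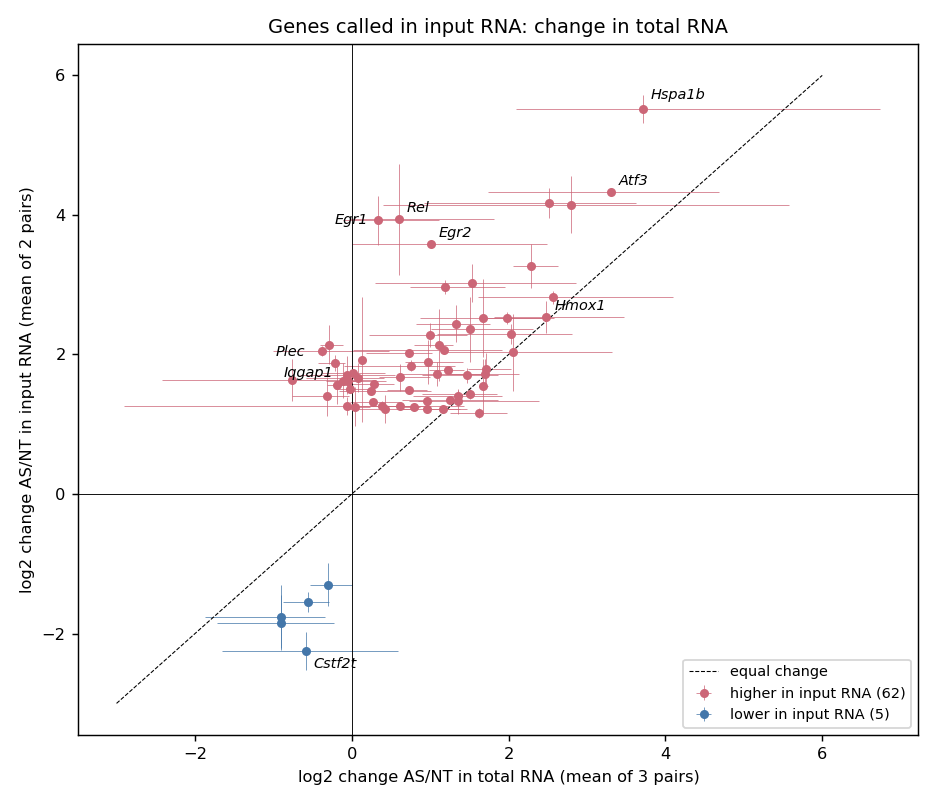
Mean log2 change AS/NT in total RNA (x axis, 3 pairs) and in cytoplasmic input RNA (y axis, 2 pairs) of the 67 genes called in input RNA. Bars run from the lowest to the highest pair and the dashed line marks equal change. Iqgap1 (-0.22 and 1.88) and Plec lie high above the line, and Hmox1 lies near it.

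The difference between the input and the total RNA change was tested as an interaction. No gene of 9922 passed without the block (65 with an unadjusted p below 0.05 by edgeR) or with it (447), and DESeq2 called none (89). When genes were kept only with more than 5 reads in every library, the blocked fit called 14 of 7025 with a larger change in the input (0.199%) and none with a smaller one (0%). The same filter without the block gave no call (17 with an unadjusted p below 0.05), and its joint use with the block was chosen after seeing the data. Among the 14 were Iqgap1, Flnc, Plec, Flna, Phldb2, Dbn1, Iqgap3, Fn1, Ptgs2, Taf1d, D4Wsu53e, Ranbp2 and Cgnl1. The interaction was 2.09 ± 0.28 for Iqgap1 (adjusted p = 0.000318) and 1.73 ± 0.28 for Flnc (adjusted p = 0.00364). Input and total RNA were made in separate experiments, so the fraction and the experiment cannot be told apart. The input was also a cleared lysate, and the part played by RNA lost to the pellets was not tested.

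Of the 5 genes called lower, Cstf2t changed most. Cstf2t, an intronless paralog of the cleavage stimulation factor subunit CstF64, was at 288 and 623 RPM in NT and 72.5 and 108 RPM in AS (log2 change -2.26 ± 0.26, adjusted p = 0.000763). Nearly all of its reads (99%) came from the A-rich PAS shown above, which lies past the annotated end of the gene. Its relative Cstf2 was at 31.7 and 54.7 RPM in NT and 23.5 and 47.3 RPM in AS (adjusted p = 0.838). Gas1, a growth arrest gene of the cell surface, was at 193 and 302 RPM in NT and 72.2 and 93.0 RPM in AS (-1.56 ± 0.25, adjusted p = 0.00875). Ppfia1, a liprin of focal adhesions, was at 128 and 102 RPM in NT and 51.4 and 21.2 RPM in AS (-1.73 ± 0.30). Tm2d3 was at 31.1 and 23.0 RPM in NT and 5.79 and 7.80 RPM in AS, and 2310003C23Rik at 70.7 and 73.0 RPM in NT and 22.5 and 36.2 RPM in AS. The groups were apart in all 5. Library totals ended the calls of all but Cstf2t. That of Tm2d3 was also lost with the last exon only, and that of 2310003C23Rik with the last exon only and with DESeq2 and the block. None of the 5 had a mean change above 0 in total RNA, though Cstf2t was higher in one total RNA pair (0.59, -1.65 and -0.71). Its NT values in total RNA were 453, 91.5 and 12350 RPM. With this spread and the A-rich PAS, the value of Cstf2t is uncertain.

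The share called over all genes is so low that lists of this size have few or no calls at that share (0.724% higher), and 0 calls say little about them. None of 59 cytosolic ribosomal protein genes, 25 translation factors, 69 nuclear-encoded respiratory chain genes, 25 cell cycle genes and 12 stress granule genes was called in either direction. Ribosomal protein genes were lower in both pairs for 27 members and higher for 4, where 28% and 26.9% of all genes tested were lower and higher in both. Their median change was 0.00 in pair 1 and -0.34 in pair 2. Genes named Zfp followed by a number, most of which encode zinc finger proteins, were higher in both pairs for 81 of 177 members and lower for 27, with medians of 0.16 and 0.39. The only called one was Zfp36, which is no such factor but binds AU-rich elements and hastens mRNA decay, at 80.7 and 97.4 RPM in NT and 311 and 279 RPM in AS. With Btg2, an activator of deadenylation, it was one of 2 calls among 23 tested genes of mRNA decay, though Btg2 was not called by DESeq2 with the block (adjusted p = 0.222) or with library totals. Btg2 was also the only call among 10 genes of the p53 response, where Plk2 was at 79.8 and 73.4 RPM in NT and 142 and 234 RPM in AS (adjusted p = 0.0663).

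**Figure D4:**
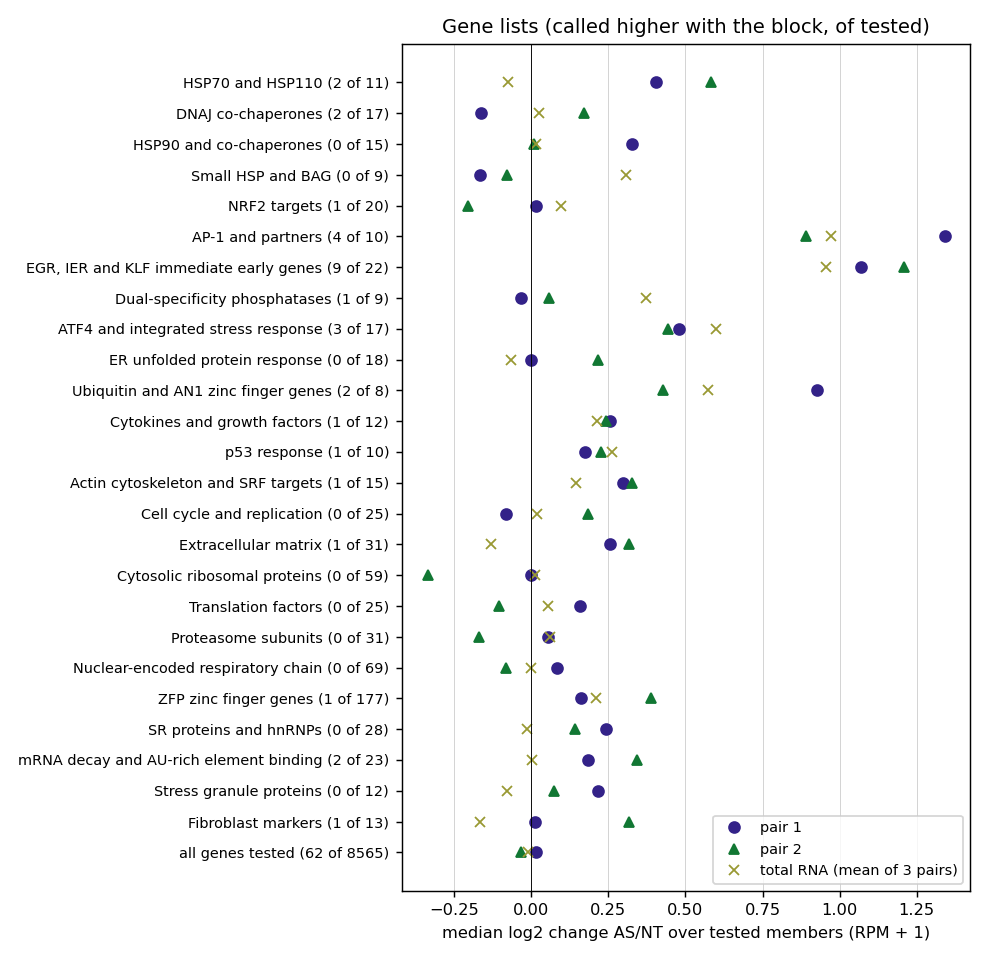
Median log2 change AS/NT over the tested members of each list with at least 5 of them, in input pair 1 (circles), input pair 2 (triangles) and total RNA (crosses, mean of 3 pairs). Numbers after each name are members called higher with the block and members tested. The EGR, IER and KLF list (1.07 and 1.21) and the AP-1 list (1.34 and 0.89) lie farthest from 0.

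The genes called higher had a median span on the genome of 13.2 kb against 22.6 kb for all genes tested, and 20 of 62 (32.3%) spanned under 5 kb, as did 1026 of 8565 (12.0%). RefSeq promoter sequences (GRCm38.p6, 250 bases before to 50 after the start, 1 per gene) were matched by symbol for 43 of the 62. The cAMP response element TGACGTCA, read on either strand, occurred in 6 of the 43 (14.0%), in 3.65% of 6217 tested genes with a promoter and in 1.88% of all 27025 promoters. The 6 windows are shown for the element they share, in capitals, on the strand of the gene. Of the motifs searched, windows are shown for this one alone.
Ccnl1, chr3:65958249-65958278, minus strand: tgtcggcgtggTGACGTCAgggcggaagcg
Ppp1r15a, chr7:45526262-45526291, minus strand: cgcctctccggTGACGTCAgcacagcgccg
Clk4, chr11:51263038-51263067, plus strand: cccgccgtcccTGACGTCAcagacccctcg
Zfand2a, chr5:139484598-139484627, minus strand: tgacatgtaagTGACGTCAtcacggcgccc
Dusp1, chr17:26508597-26508626, minus strand: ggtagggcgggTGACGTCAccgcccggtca
Btg2, chr1:134079303-134079332, minus strand: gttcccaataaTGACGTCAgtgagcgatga
The element starts 12 to 166 bases before the annotated start. The heat shock element, as alternating GAA and TTC units spaced by 2 bases, 3 units in all, was in none of the 43 and in 0.354% of the tested genes' promoters. The antioxidant response element core TGACNNNGC was in 7 (16.3%) and in 15.3%, the metal response element core (TGCACNC or TGCGCNC) in 20 (46.5%) and in 37.1%, and the AP-1 site TGANTCA in 3 (6.98%) and in 4.39%, each on either strand. The EGR site was in 3 (6.98%) and in 6.96%. The CArG box, CC and GG around 6 bases of A or T, was in 1 (2.33%) and in 1.24%. Some matches overlap, as AP-1 and antioxidant motifs do in the promoter of Mt2.

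The 3′UTR isoforms of the same libraries were compared by the relative expression difference (RED), the log2 ratio of distal to proximal PAS reads in AS minus that in NT, over the 2 PASs with most reads in the 3′UTR. A negative RED means a shift to the proximal PAS. The median RED was -0.15 in pair 1 (3091 genes) and -0.049 in pair 2 (2448 genes), a mean of -0.099 ± 0.070 (SD, n = 2 pairs). Without any treatment, NT 2 set against NT 1 gave a median RED of -0.31 (2715 genes), farther from 0 than either pair. Across the 2226 genes measured in both pairs, which are not independent replicates, the RED of pair 1 and that of pair 2 had a Pearson r of 0.01. For the genes with the longest distance between PASs (1678 to 8520 nt, the last of 5 equal groups) the medians were -0.43 and -0.16, and -0.71 between the NT libraries.

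**Figure D5:**
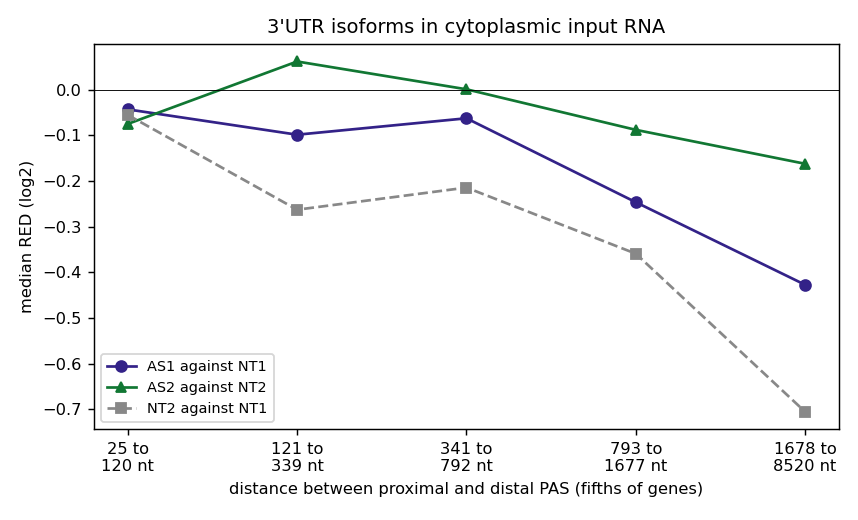
Median RED (log2) over genes split into 5 equal groups by the distance between proximal and distal PAS (x axis, nt). Solid lines are AS against NT in pair 1 and pair 2 and the dashed line is NT 2 against NT 1. In the last group the values are -0.43, -0.16 and -0.71.

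By Fisher's exact test in each pair (below 0.05, more than 5 percentage points, same direction), 37 of 2226 genes shifted to the proximal PAS (1.66%) and 6 to the distal PAS (0.27%), while 29 shifted in opposite directions in the pairs. The edgeR test of isoform by treatment, which covers the spread between replicates, called none of 2226 genes (9 toward the proximal and 2 toward the distal PAS at an unadjusted p below 0.05), nor did the blocked fit (98 and 27). The distal share of Luc7l, a U1-associated splicing factor, was 81.2 and 64.3% in NT and 59.0 and 36.8% in AS (RED -1.58 and -1.63). That of Mapre1, the microtubule plus-end protein EB1, was 86.2 and 65.2% in NT and 77.3 and 40.9% in AS (RED -0.88 and -1.44). In the other direction the distal share of Eny2, a SAGA and TREX-2 subunit, was 41.8 and 46.3% in NT and 58.4 and 61.1% in AS (RED 0.97 and 0.86). In Luc7l and Eny2 the groups did not overlap, and in Mapre1 they did. Neither Timp2 (RED -0.06 and -0.28) nor Nmt1 (0.22 and -0.58) shifted in the same direction past the threshold in both pairs. Purb had too few distal reads for a RED.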

How the data were processed

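NIH3T3 cytoplasmic input RNA (2 AS and 2 NT libraries), total RNA (3 and 3) and C2C12 cytoplasm (1 and 1) were used. According to the study's methods, the authors used cutadapt for trimming and Bowtie2 for mapping 3′READS data (build mm9) and kept reads with nongenomic Ts as PAS reads. The deposited files hold the authors' counts of PAS reads per position, not normalized, and none lists a count under 5. Depth was 1956850 to 3642602 PAS reads in the input libraries and 1178477 to 6974664 in total RNA. Intervals and tests cover these libraries only.

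Positions within 24 nt were joined into clusters, and clusters in last exons or up to 4000 nt past them were summed per gene (NCBIM37 annotation). RPM values were scaled by median-ratio size factors. Counts were tested with edgeR 4.0.16 (quasi-likelihood, filterByExpr, Benjamini-Hochberg; R 4.3.3) without a block, the design stated for the main result, and with the replicate number as a block. DESeq2 1.42.0 was an alternative, with TMM, library totals, other filters, other gene regions and each library left out. The rule pairs the libraries, and the block was planned as an alternative to the main fit. Its use for the calls followed the split between replicate numbers seen in the data, and the main fit called no gene. The labels do not say what the number marks. Deviations of same-numbered libraries from their group means correlated at 0.583 in input RNA and at 0.771 to 0.847 in total RNA. Isoforms were compared with Fisher's exact test (more than 5 reads, 5 percentage points) and edgeR.

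The rule for named genes took the 15 most changed genes in each direction past the threshold without the block (none passed), up to 4 members of each list by smallest p, and the 5 largest isoform shifts each way. Further genes from the blocked fit were chosen after their values were seen. The members and the 30 lists were chosen with earlier results of these data known. RNA-seq and RIP libraries were not used here. A few genes counted in these totals are not reported here by name.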

Additional observations from a re-analysis of the deposited data

Results flagged for a closer look

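The AS change differed between cytoplasmic input and total RNA in 14 genes by the interaction term of the blocked edgeR fit, among genes with more than 5 reads in every library. The difference, input minus total on the log2 scale, was 2.087 for Iqgap1, 1.734 for Flnc, 2.555 for Plec, 1.665 for Flna and 1.665 for Phldb2. It was 1.764 for Taf1d, 1.507 for Dbn1, 1.809 for D4Wsu53e, 1.768 for Iqgap3 and 1.77 for Fn1, and 1.714 for Ranbp2, 1.615 for Ptgs2 and 2.122 for Cgnl1. Adjusted p ran from 0.000318 (Iqgap1) to 0.0481 (Cgnl1), and all 14 changes were higher in the input in both pairs. In the wider set of 9922 genes no gene passed, with or without the block.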

How the results depend on the processing

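Without the block, genes called higher numbered 0 in the main setting, 1 with no filter on low counts, 23 with DESeq2 and 0 to 2 when each library was left out (2 without AS 1), and 62 with the replicate block. Genes called lower numbered 1 with DESeq2 and 5 with the replicate block. The block raised the total RNA calls to 24 higher. Leaving out a library in the blocked fit was not run, since 1 pair would remain.

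With the replicate block, and chosen after seeing the data, the 62 higher calls became 39 with the last exon only, 120 with only clusters listed in all 4 libraries, 27 with library totals, 132 with more than 5 reads in every library and 41 with DESeq2. The 5 lower calls became 13 with all PASs of the gene body, 2 with the last exon only, 47 with only clusters listed in all 4 libraries, 14 with TMM, 1 with library totals and 51 with more than 5 reads in every library. Of the 67 calls, 22 were tested and kept in all 9 alternatives, 28 were kept in each alternative that could test them, and 11 were lost only under library totals. The interaction with the block rose from 0 to 14 higher with more than 5 reads in every library. Neat1 reversed with only clusters listed in all 4 libraries, to -0.2436 without the block and -0.1921 with it. The cause was not tested for any of these.

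At 10 percentage points 16 of 2226 genes shifted to the proximal PAS in both pairs and 4 to the distal PAS. With more than 20 reads these were 26 and 2 of 929. With the reads of both replicates summed, a single Fisher test per gene gave 354 and 137 of 3480. Those summed counts are not calls in both pairs and do not cover the spread between replicates. The median RED was -0.149 and -0.0490 in the pairs, and -0.119 and -0.0379 with more than 20 reads. With 2 libraries a group and 1956850 reads in the shallowest, PASs under 5 reads are not seen.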
